A study of Mus musculus with 6 samples.

Results

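The tripartite motif (TRIM) family was examined in cultured mouse microglia, the brain's own macrophages, as the 67 genes, of 24411 listed, whose symbol is Trim followed by a digit. TRIM proteins carry a RING domain that acts as an E3 ubiquitin ligase, followed by B-box zinc fingers and a coiled coil, and most end in a domain that sorts them into classes and binds their targets. Many are known as antiviral restriction factors or as regulators of the signals that run from pattern receptors to NF-κB and interferon. Others work in chromatin, on microtubules, in muscle or at synapses.

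The libraries fell into FTY720 plus LPS (FTY720 at 1 µM with LPS at 10 ng/ml for 4 h, 3 libraries) and FTY720 alone (1 µM for 4 h, 3 libraries). FTY720 (fingolimod), which both groups received, is phosphorylated in cells and then engages receptors for sphingosine-1-phosphate. LPS is the bacterial cell wall component sensed by Toll-like receptor 4. Per the labels' protocols the cells were cultured from pooled brains of 12 ICR mice aged 3 days, and more than 92% carried CD11b. The 3 libraries of a group came from independent RNA samples. Separate animal pools are not stated in the sources used here, so the p-values measure the spread between these RNA samples.

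Gene reads on the sense strand numbered 2431775 to 2800738 per library with LPS and 2729532 to 3454647 with FTY720 alone. TRIM genes took 1658 to 2281 of them per library with LPS and 2210 to 2803 without, so single members rest on few reads. A count of 0 in 1 library allows up to 3 reads, or 1.12 to 1.5 CPM (reads scaled to each library's effective size) with LPS and 0.706 to 1.00 CPM without, counting error only. Microglial markers were present: all 11 had reads, and their summed level was 3261 to 3795 CPM with LPS and 2219 to 2361 CPM without. Other cells' markers had reads too: astrocyte markers summed to 107 to 146 CPM with LPS and 94.8 to 114 CPM without, monocyte and border macrophage markers to 109 to 137 with LPS and 69.0 to 76.1 without (Ly6c2 at 0), and fibroblast and mural markers to 136 to 198 with LPS and 87.1 to 168 without. Endothelial markers summed to 11.4 to 14.5 CPM with LPS and 4.34 to 6.68 without, and granulocyte markers to 6.35 to 9.51 with LPS and 0.668 to 3.53 without (S100a9 at 0). Single genes held much of some sums. Of the monocyte and border macrophage markers, Mrc1 had 113 CPM with LPS and 68.8 without. Of the fibroblast and mural markers, Fn1 had 96.4 CPM with LPS and 70.3 without. Of 5 tested fibroblast and mural markers 0 passed, and of 7 tested astrocyte markers 2 rose and 1 fell. Both tested monocyte and border macrophage markers rose. The part of other cells in the members' changes was not tested. Neuron and oligodendrocyte-lineage markers are given beside the neuronal members. The share of gene reads in rRNA-like rows was lowest in FTY720 replicate 3 (28.8%) and highest in FTY720 replicate 2 (59.0%). It was 38.2% to 47.9% in the other libraries. In such bulk libraries, fewer cells of a type and less RNA per cell cannot be told apart.

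With LPS, single members of the family changed in both directions. Of the 33 members with enough reads to test, 10 rose and 10 fell at an adjusted p under 0.05 (edgeR's quasi-likelihood test, Benjamini-Hochberg over 10124 genes), and 13 did not pass. Of all tested genes 46% passed, 23.3% as higher and 22.7% as lower, so the members' shares of 60.6% in all and 30.3% in each direction are not read as a result about the family. The median log2 fold change, LPS over FTY720 alone, was -0.18 for the members and -0.04 for all tested genes. Members that rose by at least 2-fold numbered 7 (8.49% of all tested genes did so), and 3 fell by at least 2-fold (9.59%).

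The members that rose included Trim21, Trim25, Trim26, Trim30a and Trim56, which are known from innate immunity, and Trim69, Trim72 and Trim36, which are known from other tissues. The members that fell included the neighbours Trim65 and Trim47, and the 3 tested members of the 4 that end in NHL repeats. The number that rose was 10 to 12 whichever library was left out, in fits that tested 34 to 36 members. Without FTY720 replicate 3, 12 of 35 rose and 10 fell. The number that fell was less steady, with 5 without FTY720 plus LPS replicate 2, 5 with DESeq2 (10 rose) and 6 with the expression trend removed (10 rose). Over all genes the calls lower dropped as well, from 2297 in the main test to 1727, 1529 and 1939 in the same order. Scaling by total gene reads alone gave 7 that rose and 11 that fell, and it moved the median of all genes to -0.35. With that scaling 766 of all tested genes rose and 2688 fell, against 2362 and 2297 in the main test. These shifts are not read as a trait of the family.

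**Figure D1:**
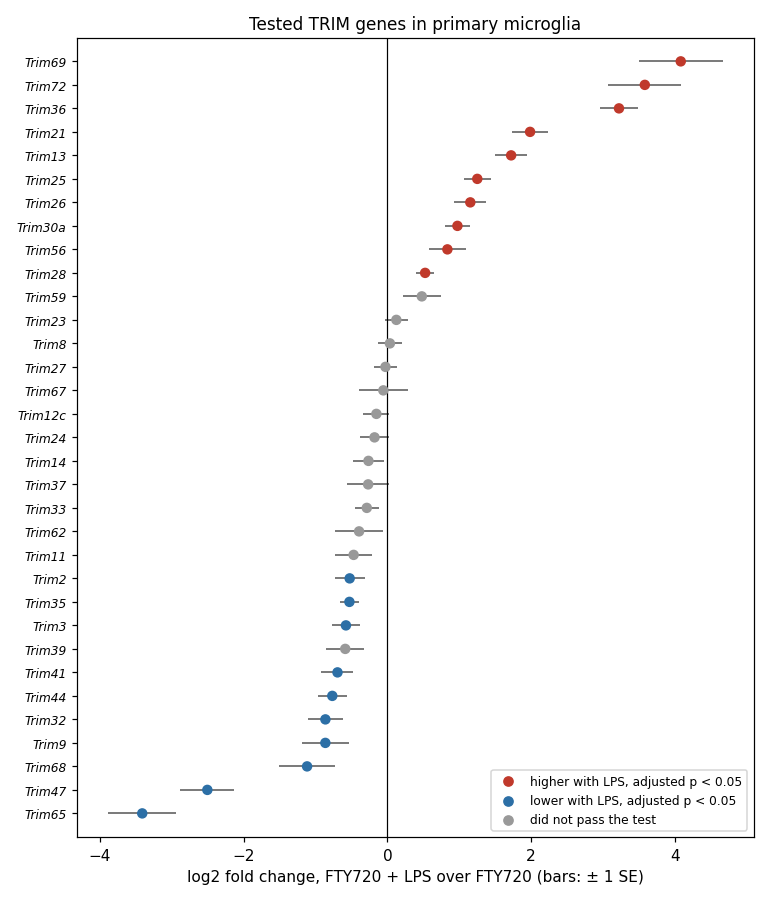
Log2 fold change (FTY720 plus LPS over FTY720 alone) of the 33 tested TRIM genes, with bars of 1 standard error (SE, n = 3 per group). Red points rose, blue points fell and grey points did not pass the test; the values run from 4.08 for Trim69 to -3.41 for Trim65.

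Many antiviral TRIM proteins end in the SPRY domain, a protein-binding domain. Of 36 SPRY-domain members 17 could be tested, of which 6 rose and 5 fell, with a median log2 fold change of -0.26. Beside them, 23.3% of all tested genes rose and 22.7% fell, so these counts are not read as a result about the class. Trim21, a cytosolic receptor that binds antibody-coated virus and ubiquitinates it, had 26.9, 22.8 and 17.5 CPM with LPS, against 6.67, 5.68 and 4.94 CPM with FTY720 alone. All LPS libraries lay above all others, and Trim21 was 3.96-fold higher (log2 fold change 1.98 ± 0.25, SE, adjusted p = 6.47e-07). On GRCm38 it spans 102557921 to 102565486 of chromosome 7 on the minus strand.

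Trim25, a ligase for the RNA sensor RIG-I and for ISG15, had 95.5, 94.8 and 95.6 CPM with LPS, against 52.7, 45.4 and 24.2 CPM with FTY720 alone. The LPS libraries were nearly equal, while FTY720 replicate 3 held less than the other FTY720 libraries. Trim25 was 2.38-fold higher (1.25 ± 0.19, adjusted p = 8.69e-06) and lies on chromosome 11 (88999376 to 89020293, plus strand). Trim26, which lies in the major histocompatibility region of chromosome 17 (36837134 to 36859398, plus strand) and is known from interferon signalling, had 32.5, 51.6 and 39.0 CPM with LPS, against 23.0, 21.7 and 11.8 CPM without. Here too FTY720 replicate 3 was the lowest library and the groups did not overlap (1.15 ± 0.22, adjusted p = 0.000183).

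Trim30a, which in the mouse restrains Toll-like receptor signalling by degrading TAB2 and TAB3, had 46.3, 38.1 and 34.5 CPM with LPS, against 19.4, 20.7 and 20.7 CPM with FTY720 alone. The groups were well apart, and the fold change was 1.96 (0.97 ± 0.17, adjusted p = 6.46e-05; 0.66, adjusted p = 0.0692, with total gene reads alone). It spans 104409025 to 104465193 of chromosome 7 (minus strand). Trim56, a ligase of cytosolic DNA sensing on chromosome 5 (137105644 to 137116209, minus strand) usually classed as lacking a domain after its coiled coil, had 11.6, 16.9 and 23.5 CPM with LPS, against 10.0, 10.0 and 8.71 CPM without. The lowest LPS library lay just above the highest FTY720 library. Trim56 rose by 0.83 ± 0.25 on the log2 scale (adjusted p = 0.0102), a call that was lost without FTY720 plus LPS replicate 3 (0.60, adjusted p = 0.0885) and with total gene reads alone (0.52, adjusted p = 0.215).

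**Figure D2:**
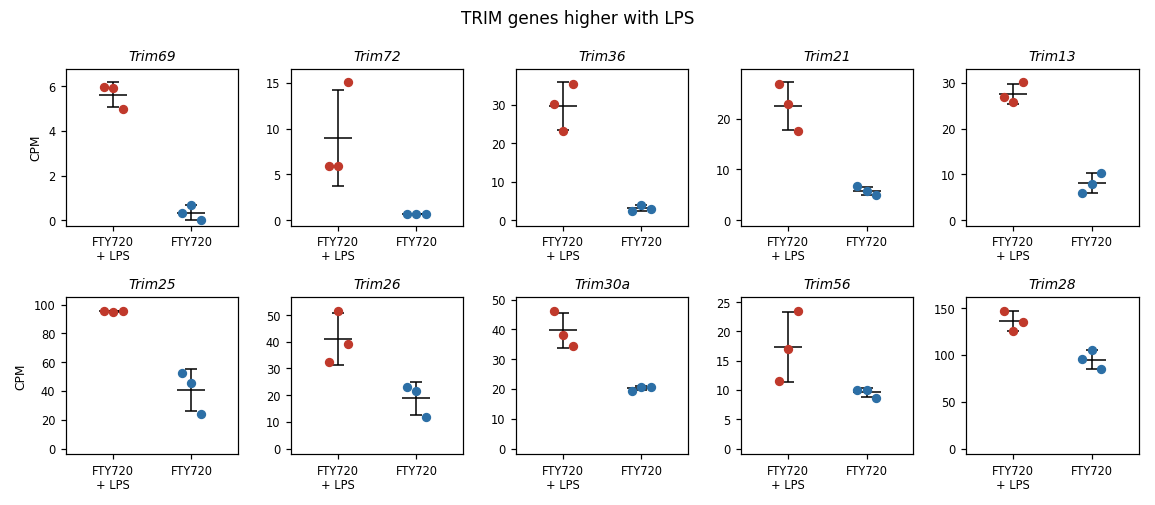
CPM of the 10 TRIM genes that rose, 1 point per library, FTY720 plus LPS in red on the left and FTY720 alone in blue on the right, with the mean and the SD (n = 3) as black marks. In each panel all LPS points lie above all FTY720 points; Trim72 has 1 LPS library at 15.0 CPM, far above the other LPS libraries.

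The interferon-stimulated response element (ISRE) is the DNA motif bound by the interferon-activated ISGF3 complex and by interferon regulatory factors. It was searched as GAAA, any 2 bases, GAAA on both strands of the RefSeq promoter windows on GRCm38.p6, which run from 250 bases before to 50 bases after a gene's start. Windows were given for 51 of the 67 members. The motif lay in those of 3 of 9 members that rose, 1 of 7 that fell (Trim2), 1 of 9 tested members that did not pass and 3 of 26 members too low to test. Over all windows 1131 of 32851, or 3.44%, held it, and counted by gene, as the members are, 1079 of 27025, or 3.99%, did. Stretches of the 7 members other than Trim2 are shown because they let the ISRE of members that rose be set beside that of relatives that did not or could not be tested. They read 5′ to 3′ on the gene's strand, with the ISRE in capitals, which begins with TTTC where the motif is on the other strand.
Trim21: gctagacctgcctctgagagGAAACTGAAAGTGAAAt
Trim26: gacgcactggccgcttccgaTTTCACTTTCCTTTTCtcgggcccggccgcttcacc
Trim30a: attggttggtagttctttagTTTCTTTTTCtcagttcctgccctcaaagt
Trim30d: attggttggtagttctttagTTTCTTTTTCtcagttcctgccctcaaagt
Trim34a: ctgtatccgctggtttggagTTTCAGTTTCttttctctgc
Trim12c: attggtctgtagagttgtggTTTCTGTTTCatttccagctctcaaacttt
Trim12a: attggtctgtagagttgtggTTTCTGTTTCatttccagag

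The stretch of Trim21 is chr7:102565453-102565489 (minus strand), where 2 copies of the motif overlap just after the start. That of Trim26 is chr17:36836966-36837021 (plus strand), again with 2 overlapping copies. The Trim30a stretch (chr7:104465200-104465249, minus strand) and the Trim30d stretch (chr7:104507861-104507910, minus strand) were identical over their 50 bases. This holds for the upstream start of Trim30a. Its other start also has a match (chr7:104446096-104446143, minus strand), in a stretch that is not shown and differs from that of Trim30d. The Trim34a stretch is chr7:104244447-104244486 (plus strand). The Trim12c stretch (chr7:104353349-104353398, minus strand) and the Trim12a stretch (chr7:104315466-104315505, minus strand) differed at 2 of the 40 bases compared. A match describes these letters only and is not a measured binding site.

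The NF-κB consensus, searched in the same windows, was in those of Trim13 and Trim28 (2 of 9 that rose), of 0 of 7 that fell, of 0 of 9 tested members that did not pass and of 3 of 26 members too low to test. It was in 8.46% of all windows, or in those of 9.55% of all genes.

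Trim30a, Trim30d, Trim34a, Trim12c and Trim12a belong to a run of 9 members on chromosome 7 (104218793 to 104535361) that holds the mouse relatives of the retroviral restriction factor TRIM5. These genes are close copies, and reads that map to several places are not in the counts, so their values are uncertain. Only Trim30a and Trim12c could be tested. Trim12c, which carries the ISRE shown above, had 26.5, 30.5 and 22.5 CPM with LPS, against 27.0, 25.4 and 35.5 CPM with FTY720 alone, and the groups overlapped (-0.15 ± 0.18, adjusted p = 0.509).

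The run's scarcer members were described from their reads, with exact 95% intervals that cover counting error only. Trim34a had 18, 8 and 16 reads with LPS and 9, 10 and 9 without, a ratio of 2.18 per effective library (1.32 to 3.65). Trim34b had 13, 12 and 6 reads with LPS and 5, 6 and 8 without (2.37, 1.30 to 4.44). In CPM both stood higher in all LPS libraries than in all FTY720 libraries. Trim30d had 11, 6 and 8 reads with LPS and 3, 9 and 6 without, and overlapped. Trim30b had 7 reads with LPS and 0 without. Trim6 had 0 reads with LPS and 6 without, while Trim12a and the pseudogene Trim30e-ps1 had 0 reads in all libraries.

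Among the members that rose, the largest fold changes were those of 3 genes known from other tissues, all scarce with FTY720 alone. Trim36, a microtubule-associated ligase known from sperm, had 81, 55 and 71 reads with LPS, against 7, 12 and 13 with FTY720 alone. In CPM this was 30.2, 23.3 and 35.5 with LPS, against 2.34, 4.01 and 3.06 without, and the groups were far apart. Trim36 was 9.33-fold higher (3.22 ± 0.27, adjusted p = 8.63e-10), the smallest p among the members. It lies on chromosome 18 (46165300 to 46212607, minus strand).

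Trim69, a testis-expressed member that binds microtubules and is interferon-stimulated in human cells, had 16, 14 and 10 reads with LPS, against 1, 2 and 0 with FTY720 alone. Reads per effective library were 19.4 times as many with LPS (exact 95% counting interval 6.17 to 98.0), and the edgeR test passed (adjusted p = 5.3e-06). Its fitted log2 fold change of 4.08 was 4.99 without FTY720 replicate 2, 3.38 without FTY720 replicate 3 and 4.89 after removal of the expression trend. Trim72, also called MG53 and known from membrane repair in muscle, had 16, 14 and 30 reads with LPS, against 2, 2 and 3 without. The third LPS library held as many of its reads as the other two together, and the groups did not overlap (3.58 ± 0.51, adjusted p = 4.56e-06). Trim69 lies on chromosome 2 (122160700 to 122179027, plus strand) and Trim72 on chromosome 7 (128003949 to 128011033, plus strand).

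Trim13, a ligase anchored in the endoplasmic reticulum that takes part in the degradation of misfolded proteins, had 26.9, 25.8 and 30.0 CPM with LPS, against 6.01, 8.01 and 10.4 CPM with FTY720 alone. The groups were far apart, and Trim13 was 3.30-fold higher (1.72 ± 0.22, adjusted p = 1.09e-06). It lies on chromosome 14 (61598247 to 61605946, plus strand) opposite the RNA gene Dleu2, which did not pass the test (-0.11 ± 0.29, adjusted p = 0.782). The other member with a transmembrane segment, Trim59, stood at 0.48 ± 0.26 (adjusted p = 0.139). It passed without FTY720 replicate 3 (0.77, adjusted p = 0.018) and after removal of the expression trend (0.69, adjusted p = 0.0492).

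The chromatin members carry a PHD finger and a bromodomain. Trim28, also called KAP1, the co-repressor that recruits the histone methyltransferase Setdb1 to KRAB zinc finger proteins, had 147, 126 and 136 CPM with LPS, against 96.1, 105 and 84.5 CPM with FTY720 alone. The groups did not overlap, and Trim28 was 1.44-fold higher (0.52 ± 0.12, adjusted p = 0.00129), although the call was lost with total gene reads alone (0.22, adjusted p = 0.574) and after removal of the expression trend (0.18, adjusted p = 0.253). Trim24, a co-regulator of nuclear receptors, had 17.2, 17.3 and 24.5 CPM with LPS, against 18.7, 25 and 22.4 CPM without, and overlapped (-0.18 ± 0.20, adjusted p = 0.482). Trim33, which acts on Smad signalling, had 31.3, 34.7 and 25.5 CPM with LPS, against 41.4, 38.4 and 33.2 CPM without. Its groups overlapped (-0.29 ± 0.17, adjusted p = 0.161), and it passed as lower without FTY720 replicate 3 (-0.37, adjusted p = 0.0449) and with upper-quartile factors (-0.42, adjusted p = 0.0398). Trim28 lies on chromosome 7 (12999114 to 13031035, plus strand). The fourth, Trim66, had 11 reads with LPS and 5 without and was not tested.

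Trim65 and Trim47 fell the most. Trim65, a ligase for the RNA sensor MDA5, had 2, 4 and 0 reads with LPS, against 32, 25 and 40 with FTY720 alone. Trim47, a SPRY-domain ligase, had 9, 4 and 3 reads with LPS, against 51, 26 and 57 without. In both, every FTY720 library lay far above every LPS library. Trim65 was 10.6-fold lower (-3.41 ± 0.48, adjusted p = 3.7e-06) and Trim47 5.68-fold lower (-2.51 ± 0.37, adjusted p = 9.2e-06).

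These genes are neighbours on the minus strand of chromosome 11, with Trim47 at 116105752 to 116127210 and Trim65 at 116121846 to 116131128. Their annotated spans share 5365 bases on the same strand in GENCODE M21. With the authors' annotation not given in the sources used here, how reads from the shared stretch were assigned is uncertain, and the fold changes may not be independent of each other. Their calls held in all 15 alternative settings, with log2 fold changes between -4.33 (without FTY720 plus LPS replicate 2) and -2.84 for Trim65 and between -2.96 and -2.16 for Trim47.

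Trim35, an abundant SPRY-domain member known to promote apoptosis, had 62.7, 51.6 and 49.1 CPM with LPS, against 81.8, 83.8 and 72.0 CPM with FTY720 alone. The groups did not overlap, and Trim35 was 1.44-fold lower (-0.53 ± 0.14, adjusted p = 0.00314). Trim44, which lacks the RING domain, had 19.0, 19.5 and 17.0 CPM with LPS, against 39.4, 33.7 and 23.1 CPM without, with no overlap (-0.77 ± 0.20, adjusted p = 0.00386). Trim35 lies on chromosome 14 (66297031 to 66311424, plus strand) and Trim44 on chromosome 2 (102300119 to 102407828, minus strand).

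Trim41, a ligase of protein kinase C, had 11.2, 10.2 and 13.0 CPM with LPS, against 15.4, 21.7 and 18.4 CPM with FTY720 alone, without overlap. It was 1.62-fold lower (-0.70 ± 0.22, adjusted p = 0.0139), but with both strands counted the change was 0.00 (adjusted p = 0.989), since reads on the opposite strand, where Rack1 lies, were more numerous with LPS. The call was also lost without FTY720 replicate 2 (adjusted p = 0.0761), without FTY720 plus LPS replicate 1 (0.0626) or replicate 2 (0.0757), with DESeq2 (0.0585) and after removal of the expression trend (0.06). Trim68, a SPRY-domain member, had 10, 5 and 3 reads with LPS, against 21, 13 and 23 without, and did not overlap in CPM (-1.12 ± 0.40, adjusted p = 0.0246). It lost the call in 6 of 15 settings; in 5 of them adjusted p lay between 0.102 and 0.20, and with a minimum count of 20 it was not tested. Trim41 lies on chromosome 11 (48806404 to 48817353, minus strand) and Trim68 on chromosome 7 (102677582 to 102687327, minus strand), close to Trim21, which rose.

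**Figure D3:**
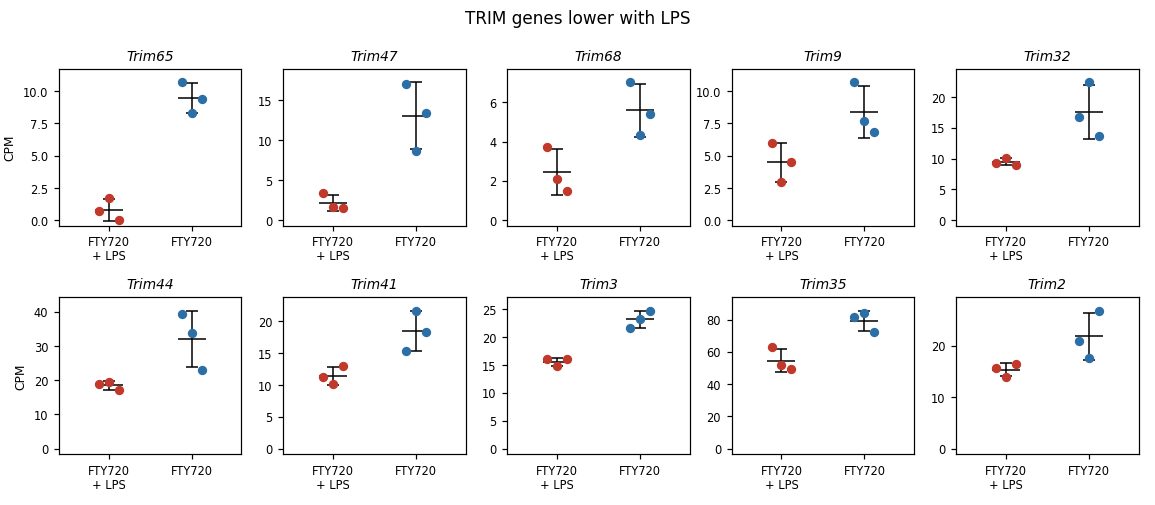
CPM of the 10 TRIM genes that fell, 1 point per library, FTY720 plus LPS in red on the left and FTY720 alone in blue on the right, with the mean and the SD (n = 3) as black marks. In each panel all LPS points lie below all FTY720 points. Each panel has its own scale, and relative to that scale the gap is widest for Trim65 and Trim47 and small for Trim2.

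Of the 4 NHL-repeat members 3 could be tested, and these 3 fell, where 22.7% of all tested genes did; the class itself was not tested. Trim32, a ligase of dysbindin and actin known from muscle and neural progenitors, had 9.32, 10.2 and 9.01 CPM with LPS, against 16.7, 22.4 and 13.7 CPM with FTY720 alone. Trim3, a brain-enriched ligase of the postsynaptic density, had 16.0, 14.8 and 16.0 CPM with LPS, against 21.7, 23.4 and 24.7 CPM without. Trim2, which ubiquitinates the light neurofilament chain, had 15.7, 14 and 16.5 CPM with LPS, against 21, 17.7 and 26.8 CPM without. None of them overlapped between the groups, and the LPS libraries were close together in each.

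The log2 fold change was -0.86 ± 0.24 for Trim32 (adjusted p = 0.00595), -0.58 ± 0.19 for Trim3 (adjusted p = 0.0163) and -0.53 ± 0.21 for Trim2 (adjusted p = 0.0431). Trim32 lost its call without FTY720 replicate 2 (-0.63, adjusted p = 0.0542). Trim3 lost it without FTY720 plus LPS replicate 1 (adjusted p = 0.0565) or replicate 2 (0.0738) and with DESeq2 (0.0716). Trim2 lost it in 8 of 15 settings, with adjusted p up to 0.19, among them the omission of FTY720 replicate 1 or 3 or of any FTY720 plus LPS replicate. Trim32 lies on chromosome 4 (65604986 to 65616238, plus strand), Trim3 on chromosome 7 (105604463 to 105633571, minus strand) and Trim2 on chromosome 3 (84160439 to 84306877, minus strand). The class's other member, Trim71, had 2 reads in each group.

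The microtubule-binding class with COS and fibronectin domains split. While Trim36 rose, Trim9, a brain ligase that regulates SNARE-dependent secretion, had 5.97, 2.96 and 4.51 CPM with LPS, against 10.7, 7.68 and 6.83 CPM with FTY720 alone. The groups did not overlap, and the log2 fold change was -0.86 ± 0.33 (adjusted p = 0.0365). The call was lost in 6 of 15 settings, among them without FTY720 replicate 1 (adjusted p = 0.167) and without FTY720 plus LPS replicate 2 (0.189) or replicate 3 (0.0938). Trim9 lies on chromosome 12 (70244533 to 70347614, minus strand). Trim46, which organises microtubules at the start of the axon, had 3, 2 and 1 reads with LPS, against 14, 7 and 7 without, a ratio of 0.312 (exact 95% counting interval 0.105 to 0.767), and was too scarce to test. Trim67, a close relative of Trim9, stood at -0.06 ± 0.34 (adjusted p = 0.906).

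Trim9, Trim46, Trim2 and Trim3 are best known from neurons, and neuron markers fell in the same libraries. Trim46 was too scarce to test, and Trim67, the close relative of Trim9, did not pass (-0.06 ± 0.34, adjusted p = 0.906). The 8 neuron markers summed to 112 to 123 CPM with LPS and 195 to 259 CPM with FTY720 alone; 3 of 5 tested fell, 0 rose and 0 of the 8 lacked reads in all libraries. The oligodendrocyte-lineage markers summed to 142 to 163 CPM with LPS and 268 to 293 CPM without, and 5 of 6 tested fell. Astn2, a neuronal gene on the opposite strand that spans Trim32, fell as well (-1.16 ± 0.33, adjusted p = 0.00691). The part of these cells in the members' changes was not tested.

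A set of signalling members known from innate immunity did not pass the test. Trim8, which acts on TAK1 and SOCS1, had 32.5, 30.0 and 42.1 CPM with LPS, against 32.7, 36.4 and 32.5 CPM with FTY720 alone (0.03 ± 0.16, adjusted p = 0.884). Trim27, a ligase of NOD2 and TBK1 signalling, had 40.3, 27.1 and 36.5 CPM with LPS, against 37.4, 35.1 and 33.9 CPM without (-0.03 ± 0.17, adjusted p = 0.906). Both overlapped between the groups, and their signs turned with the setting. Trim14, an adaptor of MAVS, stood at -0.26 ± 0.21 and Trim23, which ends in an ARF-like GTPase domain, at 0.12 ± 0.16 (adjusted p = 0.315 and 0.549).

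Of the rest, Trim37, Trim62, Trim11 and Trim39 lay between -0.59 and -0.27. Trim11 (adjusted p = 0.135) and Trim39 (0.077) did not overlap between the groups although neither passed. Trim39 passed with upper-quartile factors (-0.72, adjusted p = 0.0305) and with total gene reads alone (-0.90, adjusted p = 0.0405). Over the 33 tested members, 22 did not overlap, or 66.7% against 54% of all tested genes.

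The remaining 34 members did not reach the read minimum and are described by their reads. A total of 5 had 0 reads in all libraries (Trim12a, Trim30e-ps1, Trim52, Trim55 and Trim61), 20 had 1 to 10 reads over the 6 libraries, and 9 had more. Trim16 had 18 reads with LPS and 38 without, Trim45 had 11 with LPS and 26 without, and Trim17 had 12 with LPS and 10 without. The low members include the muscle ligases Trim54, Trim55 and Trim63, and also Trim38, known for damping Toll-like receptor signalling in macrophages, which had 1 read with LPS and 0 without. Trim7 had 9 reads with LPS and 3 without (ratio 4.36, exact 95% counting interval 1.09 to 25.1). The low members that are named neither here nor with their class or cluster had at most 5 reads per group.

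Levels per kilobase of exon, in CPM, allow the members to be ordered. Trim28 was the highest in both groups, at 32.8 ± 2.6 with LPS and 22.9 ± 2.5 with FTY720 alone (SD, n = 3 each). With LPS, Trim13 (16.7 ± 1.3), Trim25 (16.6 ± 0.079) and Trim35 (11.8 ± 1.6) came next, and Trim13 and Trim25 did not differ beyond their spread. With FTY720 alone, Trim35 (17.2 ± 1.4), Trim8 (9.13 ± 0.59) and Trim12c (7.84 ± 1.5) followed Trim28, and Trim8 and Trim12c lay within their spread of each other. Trim36 stood at place 10 of the 33 tested members with LPS and at place 29 without, and Trim21 at place 9 with LPS and place 23 without. Trim47 stood at place 28 with LPS and place 14 without.

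The family's summed level was 851, 803 and 830 CPM with LPS, against 742, 738 and 660 CPM with FTY720 alone. Trim28 held 16.5% of it with LPS and 13.3% without, and Trim25 11.5% with LPS and 5.72% without. As shares of gene reads outside rRNA-like rows, the members took 0.122% to 0.132% with LPS and 0.133% to 0.156% without, so the direction of the sum depends on the scaling.

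**Figure D4:**
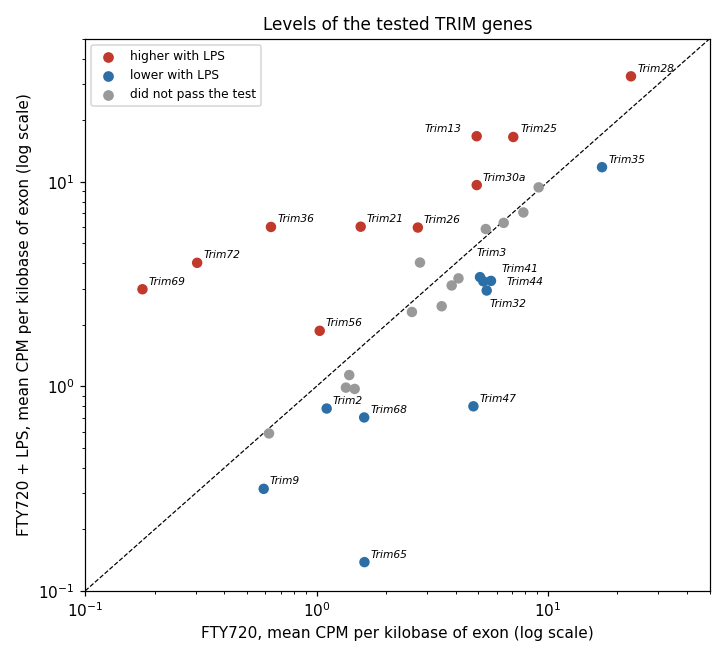
Mean CPM per kilobase of exon of the 33 tested TRIM genes with FTY720 plus LPS (vertical) against FTY720 alone (horizontal), both on log scales with the line of equal levels dashed. Trim28 stands highest in both groups, while Trim69, Trim72 and Trim36 lie far above the line and Trim65 and Trim47 far below it.

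TRIM proteins under other symbols were scarce apart from Pml. Pml, the organiser of nuclear bodies (TRIM19), had 37, 49 and 28 reads with LPS, against 27, 17 and 19 with FTY720 alone, did not overlap in CPM and rose (1.37 ± 0.28, adjusted p = 0.000393). The midline proteins Mid1 and Mid2 had 26 and 21 reads with LPS, against 19 and 26 without, and were not tested. Mefv, which encodes pyrin, Triml1 and Triml2 had 1 read each over all libraries.

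A list of 50 proteins that TRIM ligases bind, modify or work with was set beside the family. Of 48 tested, 20 rose and 7 fell, beside 23.3% of all tested genes that rose and 22.7% that fell. Their median log2 fold change was 0.23 (all tested genes -0.04), and with total gene reads alone 11 rose. The list was chosen with earlier results of these data known, so these counts are not read as a result about the partners. Those that rose most were Isg15, the ubiquitin-like modifier (8.17 ± 0.18), Ifih1, which encodes the RNA sensor MDA5 (4.83 ± 0.15), the transcription factor Irf7 (4.44 ± 0.20), the cytokine signal inhibitor Socs1 (4.11 ± 0.27), the inflammasome sensor Nlrp3 (2.93 ± 0.17) and the peptidoglycan sensor Nod2 (2.77 ± 0.41).

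Those that fell most were the retinoic acid receptor Rara (-1.81 ± 0.29), the TAK1 partner Tab1 (-1.79 ± 0.34), the mitochondrial adaptor Mavs (-1.27 ± 0.20), the dysbindin gene Dtnbp1 (-1.05 ± 0.15), the NF-κB essential modulator Ikbkg (-0.93 ± 0.15) and Setdb1 (-0.74 ± 0.18). Named after their values were seen, Ddx58, which encodes RIG-I, rose by 2.34 ± 0.34, and the Trim30a targets Tab2 and Tab3 rose by 0.68 ± 0.14 and 0.71 ± 0.16. The MDA5 gene Ifih1 was higher where Trim65 was lower, and the RIG-I gene was higher together with Trim25. These pairs were picked after their values were seen. In other pairs, Socs1 and Nod2 rose and Mavs fell, while Trim8, Trim27 and Trim14 did not pass. No relation within a pair was tested. The Trim28 partner Setdb1 was lower where Trim28 was higher, but other chromatin genes of the list did not share this direction. Chd4 (1.38 ± 0.12) and Hdac1 (0.78 ± 0.30) rose, while Cbx1, Cbx3 and Cbx5 did not pass, all named after their values were seen.

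**Figure D5:**
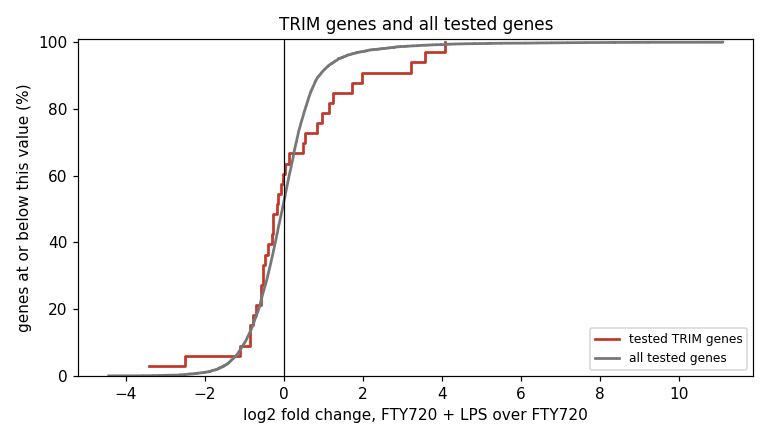
Cumulative share of genes (vertical, in %) at or below each log2 fold change of FTY720 plus LPS over FTY720 alone (horizontal), for the 33 tested TRIM genes in red and all 10124 tested genes in grey. The TRIM curve lies above the other at its median of -0.18 (all genes -0.04) and stays below the other between about 0.5 and 3.5, where Trim21, Trim13, Trim25, Trim26, Trim30a, Trim56, Trim28 and Trim36 lie.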

How the data were processed

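Each library has a deposited file of unnormalised counts by gene symbol, unstranded and per strand. The submitters' processing notes list STAR 2.5.1, Trimmomatic 0.33, CASAVA 1.8.2, DESeq2 and mm10, with annotation and settings not given in the sources used here. Multimapping reads are tallied apart from the genes, so close copies can lose reads. Per the labels' protocols, libraries were rRNA-depleted and strand-specific. The strand with 98.4% to 98.9% of gene reads was used. Library totals exclude the summary rows, which held 24.4% to 27.0% unmapped, 7.69% to 8.15% multimapping, 42.2% to 44.5% no-feature and 0.0748% to 0.114% ambiguous reads. The rRNA-like rows Rn45s, Lars2 and Mir6236 took 28.8% to 59.0% of gene reads, the least in FTY720 replicate 3.

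The test was edgeR 4.0.16 under R 4.3.3 (quasi-likelihood test, TMM factors, filterByExpr with a minimum count of 10), without a block, on 10124 genes. SE was derived from the log2 fold change and its F statistic. CPM values use TMM factors. Lengths (union of exons) and positions came from GENCODE M21 on GRCm38. The script was tested on simulated data. The members, classes, partner and marker lists were chosen with earlier results of these data known. Every member may be named; per-library values go to called members and 9 listed in advance (Trim25, Trim21, Trim30a, Trim56, Trim8, Trim27, Trim28, Trim24, Trim33), and up to 6 called partners per direction are named. Values per library of Trim12c, Trim34a, Trim34b, Trim30d and Trim46 are given outside this rule, after they were seen. Alternatives were DESeq2 1.42.0, other scalings, an expression-trend offset, other filters, both strands, the replicate block and leaving out each library. The result of 1 marker list and of 1 motif is not reported here.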

Additional observations from a re-analysis of the deposited data

Results flagged for a closer look

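Reads on the strand opposite to Trim41 numbered 67 with LPS and 23 with FTY720 alone, and stood out because this strand is outside the main measurement. In CPM they were 5.60, 12.3 and 11.5 with LPS, against 2.34, 2.00 and 2.35 with FTY720 alone, so the groups did not overlap. Rack1, a ribosomal scaffold protein gene that the files list as Gnb2l1, lies on that strand and rose by 0.80 ± 0.10 on the log2 scale (edgeR adjusted p = 1.29e-06); its part in these reads was not tested.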

How the results depend on the processing

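Of the 20 members called, 5 that rose (Trim36, Trim21, Trim13, Trim25, Trim26) and 4 that fell (Trim65, Trim47, Trim35, Trim44) were called in all 15 alternatives. Leaving out 1 library at a time, with 34 to 36 members tested, gave 10 to 12 members higher and 5 to 10 lower. The count of 5 lower came without FTY720 plus LPS replicate 2, and the cause was not tested. DESeq2 called 5 members lower and the expression trend offset 6. Calls lower over all genes numbered 2297 in the main test and 1727 without FTY720 plus LPS replicate 2. They numbered 1529 with DESeq2 and 1939 with the trend offset. Total gene reads alone called 11 partner genes higher. Counting both strands called 2 TRIM genes under other symbols higher, where the main test on sense reads could test Pml alone. Mid1 had 435 reads on its opposite strand with LPS and 59 without, against 26 and 19 sense reads. Of all genes called, 50.7% were higher, against 57.1% with DESeq2, 38.8% with upper-quartile factors and 22.2% with total gene reads alone; the median of all genes was -0.036, -0.022, -0.169 and -0.354 in the same order. With a minimum count of 20, Trim69 and Trim72 were not tested. Signs turned for Trim41 with both strands counted (0.0042), Trim23 with upper-quartile factors (-0.0097) and total gene reads alone (-0.2056), Trim67 with the trend offset (0.2906), and Trim8 with upper-quartile factors (-0.1002), total gene reads alone (-0.2806) and a minimum count of 20 (-0.0077). Over the settings that leave out 1 library, the log2 fold change ran from -0.2461 to 0.0268 for Trim12c, -0.1318 to 0.1396 for Trim27, -0.4711 to 0.0765 for Trim37, -0.2671 to 0.2495 for Trim67 and -0.0855 to 0.1447 for Trim8; none of these was called in the main test. Same-numbered libraries did not deviate together (r = -0.0221, -0.026 and -0.0725). With deviations taken within groups of 3 libraries, this cannot settle whether the numbers pair the samples, which is not stated. With the replicate block 10 members rose and 9 fell, Trim2 being the member no longer called (-0.50, adjusted p = 0.0559). Depth limits the scarce members: 34 of 67 could not be tested.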
